A study of Mus musculus with 8 samples.

Results

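Dao, Gc, Acsm2, Hsd3b4, Fbp1, Ugt2b38, Hdc, Pck1 and Miox are 9 genes associated with the metabolism of the kidney proximal tubule, and they were measured in nephron progenitors with and without floxed Hdac1 and Hdac2. They were selected by symbol, some of them because they read lower in the mutant arrays, so their difference between mutant and wildtype is a description and carries no test. Matching the RefSeq accession of each probe to a gene table gave 12 probes of 55681 for the 9 genes, with 2 probes each for Dao, Gc and Hsd3b4 and 1 probe for each of the other 6. All 12 probes passed the filter on dim probes, which asked for a Cy5 signal well above background on 3 or more of the 4 arrays in either group. The brightest probe stood for each gene among the 22662 genes tested.

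The proximal tubule reabsorbs most of the filtered load of the kidney and is also a metabolic tissue. Its cells make glucose from lactate and amino acids, oxidise D-amino acids and fatty acids, conjugate steroids and drugs, and take up vitamin D bound to its carrier. These functions appear as the nephron matures, after a cell has left the progenitor pool marked by the transcription factor Six2. HDAC1 and HDAC2 are histone deacetylases, enzymes that remove acetyl groups from histones and act within several repressor complexes.

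The samples were pools of EGFP-positive cells sorted from C57BL/6 mouse kidneys at embryonic day 15.5. Both groups carried the Six2CreEGFP transgene, which drives Cre and EGFP in nephron progenitors. The mutant pools had the genotype Six2CreEGFP+; HDAC1&2 f/f and the wildtype pools Six2CreEGFP+; HDAC1&2 +/+, with 4 pools in each group that the labels call biological replicates. For each pool 0.5 µg of total RNA was labelled with Cy5 and hybridised against Cy3-labelled RNA of wildtype pool 1, so the wildtype 1 array held the same RNA in both dyes. Whether pools shared animals was not given in the sources used here. The values below are log2 ratios of Cy5 over Cy3, in which 0 is the level of wildtype pool 1.

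Promoter sequences are shown for the 3 genes with a window that holds TATAAA, the TATA box, which helps to place transcription initiation. Each is a RefSeq window on GRCm38.p6 of 250 bases before to 50 bases after the transcription start, written 5′ to 3′ on the gene's strand. Capitals mark TATAAA or its reverse complement.
Acsm2 (chr7:119554090-119554389, + strand): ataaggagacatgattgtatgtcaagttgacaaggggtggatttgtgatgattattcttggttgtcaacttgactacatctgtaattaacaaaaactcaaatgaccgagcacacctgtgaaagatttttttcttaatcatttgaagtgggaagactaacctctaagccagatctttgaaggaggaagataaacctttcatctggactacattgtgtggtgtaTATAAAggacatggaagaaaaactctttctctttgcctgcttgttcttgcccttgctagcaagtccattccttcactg
Hsd3b4 (chr3:98510423-98510722, - strand): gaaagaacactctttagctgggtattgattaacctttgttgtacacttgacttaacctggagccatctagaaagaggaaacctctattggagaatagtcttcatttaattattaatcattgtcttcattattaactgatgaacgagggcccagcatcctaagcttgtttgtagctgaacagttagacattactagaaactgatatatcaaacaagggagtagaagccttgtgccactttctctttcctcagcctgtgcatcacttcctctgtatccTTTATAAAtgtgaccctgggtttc
Miox (chr15:89334223-89334522, + strand): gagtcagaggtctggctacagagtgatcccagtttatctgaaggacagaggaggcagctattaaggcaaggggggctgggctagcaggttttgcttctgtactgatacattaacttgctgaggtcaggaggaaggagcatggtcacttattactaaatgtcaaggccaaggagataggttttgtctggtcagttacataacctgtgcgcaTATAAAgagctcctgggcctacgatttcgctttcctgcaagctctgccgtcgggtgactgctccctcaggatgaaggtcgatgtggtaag
TATAAA was found on either strand in 13.6% of 32851 mouse promoter windows, and in 3 of the 13 windows of these genes. It began at -28 in Acsm2 and at -40 in Miox, counted from the transcription start. In Hsd3b4 it lay after the start, at 29, where it overlaps a match on the other strand, and the other annotated window of this gene did not hold it. CAAAGTCCA, a motif of the liver and tubule factor HNF4, occurred in 0.475% of all windows and in 0 of the 9 genes. A match describes the sequence only.

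The arrays and the labels were checked first. The 3 kept Hdac1 probes read -0.30, -0.40 and -0.57 in mutant minus wildtype and the Hdac2 probe -0.13. The position of the probes relative to the floxed exons was not given in the sources used here, so these values do not test the deletion. The 2 Six2 probes differed by -0.13 and -0.17. Probes well above background in Cy5 numbered 28150 to 33982 on 7 arrays and 48627 on the wildtype 2 array, which also had 2045 outlier spots against 183 to 247 elsewhere. The differences between groups are therefore also given without the wildtype 2 array. On that array the dimmer Hsd3b4 probe, not above background in Cy3 on any other array, read a Cy5 signal of 353.5. Acsm2, Ugt2b38, Fbp1 and Miox lay below that there, at 308.5, 292, 286 and 244, as did the second Gc probe at 300. Their wildtype 2 readings are therefore near the floor of that array, although flagged as above background. Pools 3 and 4 of a group differed no more in Cy5, with a median absolute deviation of 0.0839 in wildtype and 0.089 in mutant, than repeated readings of the reference RNA in Cy3, at 0.0666 to 0.116 without wildtype 2. Each such pair was averaged and counted as 1 sample, which left 3 wildtype and 3 mutant samples. The 4 arrays of a group are given below as pools 1, 2, 3 and 4, and means ± SD are over the 3 samples.

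All 9 genes had a lower mean in the mutant samples than in the wildtype samples. Their median log2 difference was -1.43, a level 2.69-fold lower, beside a median of 0.0018 over all 22662 genes tested. The order of the genes by size depended on the processing, with Hsd3b4 at -1.70 and Pck1 at -1.55 here but at -1.85 and -2.77 on the log ratios of the scanner software, and it is not read. Pool 2 read far below the other pools in both wildtype and mutant for most of these genes, so the spread within groups was large. The difference exceeded the SD of both groups in Dao, Gc and Pck1, was about as large as the larger SD in Acsm2, Ugt2b38, Hdc and Hsd3b4, and was smaller than it in Fbp1 and Miox. For Pck1 the wildtype pool 2 value was missing from this comparison.

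**Figure D1:**
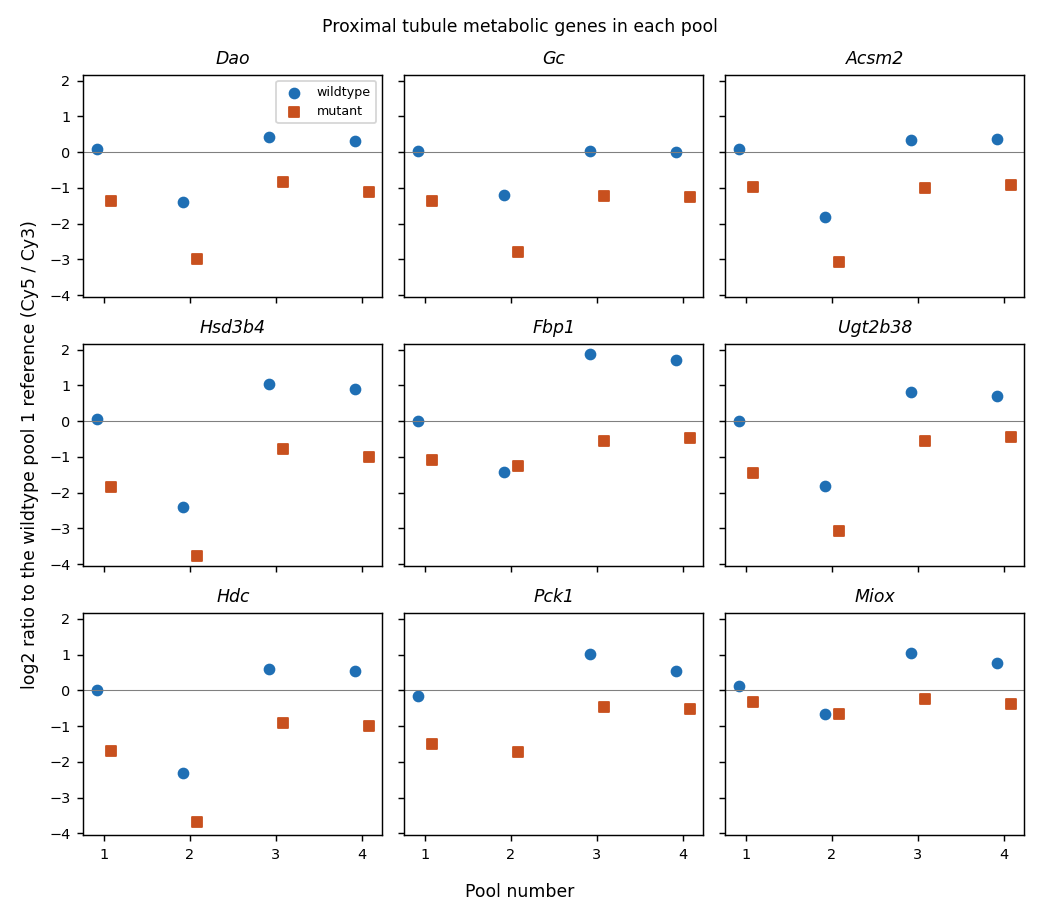
Log2 ratio to the wildtype pool 1 reference (y axis) for the brightest probe of each of the 9 genes in each pool (x axis, pool number), with wildtype pools as circles and mutant pools as squares. Mutant pool 2 is the lowest point in every panel but that of Fbp1, reaching -3.76 for Hsd3b4, and in Fbp1 and Miox it lies next to wildtype pool 2. Pck1 has no point for wildtype pool 2.

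Pck1 encodes the cytosolic phosphoenolpyruvate carboxykinase, which commits oxaloacetate to gluconeogenesis. Its log2 ratios were -0.15, 1.01 and 0.54 in wildtype pools 1, 3 and 4, and -1.49, -1.74, -0.48 and -0.53 in mutant pools 1 to 4. The spot on the wildtype 2 array was flagged as an outlier by the scanner software and was dropped. The measured mutant samples all lay below the 2 measured wildtype samples. The wildtype mean was 0.31 ± 0.65 (SD, n = 2) and the mutant mean -1.24 ± 0.65 (SD, n = 3), a difference of -1.55 ± 0.43 (SE). That difference sets mutant pool 2 against no wildtype pool 2. Without both pool 2 samples it was -1.31 ± 0.44 (SE). In the mutant group 3 of 4 arrays measured the probe above background, and pool 2 did not. On the log ratios of the scanner software the difference was -2.77.

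Fbp1 encodes fructose-1,6-bisphosphatase, a later step of the same pathway. Wildtype pools 1 to 4 read 0.0018, -1.42, 1.89 and 1.71, and mutant pools 1 to 4 read -1.08, -1.25, -0.57 and -0.47. Wildtype pools 3 and 4 were the highest, at 370% and 327% of the reference. Wildtype pool 2 was lower than every mutant pool, on a reading near the floor of its array. The means were 0.13 ± 1.61 and -0.95 ± 0.39 (SD, n = 3 each), and the difference of -1.08 ± 0.73 (SE) was within the spread of the wildtype samples.

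Dao encodes D-amino-acid oxidase, a peroxisomal flavoenzyme. The brighter probe read 0.080, -1.40, 0.42 and 0.31 in wildtype pools 1 to 4 and -1.36, -3.0, -0.83 and -1.10 in mutant pools 1 to 4. Each mutant pool was below the wildtype pool of the same number, but wildtype pool 2 fell among the mutant pools. The means were -0.32 ± 0.95 and -1.78 ± 1.08 (SD, n = 3 each), and the difference was -1.46 ± 0.63 (SE). The dimmer Dao probe read 0.11 to 0.25 in the 3 measured wildtype pools and -0.66 to -0.10 in the mutant pools, with the wildtype 2 spot dropped as an outlier. Its difference was -0.69 ± 0.15 (SE), or -2.90 on the log ratios of the scanner software, and only 1 of the 4 mutant arrays measured it above background.

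Acsm2 encodes a mitochondrial medium-chain acyl-CoA synthetase, which activates fatty acids and xenobiotic acids. Its ratios were 0.074, -1.82, 0.34 and 0.36 in wildtype pools 1 to 4. In mutant pools 1 to 4 they were -0.97, -3.07, -0.99 and -0.92, the pool 2 reading not being above background. Mutant pools 1, 3 and 4 lay close together and were all higher than wildtype pool 2. The wildtype pool 2 reading was near the floor of its array. The means were -0.47 ± 1.18 and -1.66 ± 1.21 (SD, n = 3 each), with a difference of -1.20 ± 0.74 (SE), or -2.23 on the log ratios of the scanner software.

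Miox encodes myo-inositol oxygenase, the first step of inositol breakdown and an enzyme best known from the proximal tubule. Ratios of 0.12, -0.66, 1.06 and 0.77 in wildtype pools 1 to 4 stood beside -0.32, -0.67, -0.25 and -0.39 in mutant pools 1 to 4. Pool 2 gave almost the same value in both groups, but the wildtype 2 reading was near the floor of its array. The gap between groups came mainly from wildtype pools 3 and 4. The means were 0.12 ± 0.79 and -0.44 ± 0.20 (SD, n = 3 each), a difference of -0.56 ± 0.36 (SE), or -1.37 on the log ratios of the scanner software.

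Hsd3b4 belongs to the 3beta-hydroxysteroid dehydrogenase family, which acts on steroids, and has close paralogs in the mouse. The brighter probe read 0.068, -2.41, 1.03 and 0.90 in wildtype pools 1 to 4 and -1.83, -3.76, -0.77 and -1.0 in mutant pools 1 to 4. Mutant pool 2 was at 7.37% of the reference, and wildtype pool 2 at 18.8% was below the other 3 mutant pools. The means were -0.46 ± 1.75 and -2.16 ± 1.47 (SD, n = 3 each), and the difference of -1.70 ± 1.00 (SE) corresponds to 3.25-fold. The dimmer probe was above background on 3 wildtype arrays and on 0 mutant arrays, and in the Cy3 reference on 1 of 8 arrays. It passed the filter through the wildtype group, and its ratios to that reference are not read.

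Ugt2b38 is one of the UDP-glucuronosyltransferases, which attach glucuronic acid to steroids, bile acids and drugs. Wildtype pools 1 to 4 read 0.012, -1.81, 0.82 and 0.70, and mutant pools 1 to 4 read -1.45, -3.07, -0.55 and -0.45, with mutant pool 2 not above background. Wildtype pool 2 was lower than every mutant pool except number 2, on a reading near the floor of its array. The means were -0.35 ± 1.32 and -1.68 ± 1.30 (SD, n = 3 each), with a difference of -1.33 ± 0.81 (SE), or -2.67 on the log ratios of the scanner software.

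Hdc encodes histidine decarboxylase, which makes histamine. Ratios in wildtype pools 1 to 4 were 0.0005, -2.32, 0.59 and 0.54, and those in mutant pools 1 to 4 were -1.70, -3.67, -0.91 and -0.99. Mutant pool 2 retained 7.84% of the reference level. As in Hsd3b4, wildtype pool 2 was below the 3 other mutant pools. The means were -0.59 ± 1.53 and -2.11 ± 1.41 (SD, n = 3 each), and the difference was -1.52 ± 0.91 (SE).

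Gc is not an enzyme but the vitamin D-binding protein, a plasma carrier made mainly by the liver and taken up from the filtrate by proximal tubule cells. The brighter probe read 0.025, -1.19, 0.043 and -0.0066 in wildtype pools 1 to 4. In mutant pools 1 to 4 it read -1.38, -2.81, -1.23 and -1.27, with pool 2 not above background. The 3 mutant samples lay below the 3 wildtype samples, although mutant pools 3 and 4 were only just below wildtype pool 2. The means were -0.38 ± 0.70 and -1.81 ± 0.86 (SD, n = 3 each), and the difference was -1.43 ± 0.49 (SE), or -2.37 on the log ratios of the scanner software. The second Gc probe gave -1.08 ± 0.34 (SE), or -2.02 on those log ratios, and on it the groups overlapped. This overlap came from the wildtype pool 2 reading, which was near the floor of its array.

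Most of the 9 genes thus overlapped between the groups when the pools were read without regard to their number. Gc and Pck1, 2 of the 9, did not overlap, beside a background of 6.05% of all genes tested with the mutant samples below the wildtype samples. Pck1 had no wildtype 2 value, and pool 2 was the lowest wildtype pool for the other 8 genes. Its lack of overlap thus rests on only 2 wildtype samples. Within pairs of equal pool number, 7 of the 9 were lower in the mutant in each of 3 pairs, beside 17.1% of all genes. Fbp1 was higher by 0.16 in the pool 2 pair, where its wildtype reading was near the floor. Pck1 was lower in both of the 2 pairs it had. Since the selection used this contrast, nothing is read from these shares.

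Within pairs of equal pool number the differences were as follows. The pool 2 values of Gc, Acsm2 and Ugt2b38 rest on mutant readings not above background, so they are set in part by the offset. That of Gc also rests on a wildtype 2 reading where the Cy3 level was 8.22, against 9.16 to 9.3 on the other arrays. It is therefore not read as a bound in either direction. The pool 2 values of Acsm2 and Ugt2b38 also rest on wildtype readings near the floor. How even these genes were over the pairs is not read. Ugt2b38 read -1.46, -1.26 and -1.26 in the pairs of pool 1, pool 2 and pools 3 and 4. Acsm2 read -1.04, -1.25 and -1.30, Gc -1.40, -1.61 and -1.27, and Dao -1.44, -1.61 and -1.33. Dao, Hdc and Hsd3b4 were above background on every array, and Hdc spanned -1.70 to -1.35 and Hsd3b4 -1.90 to -1.35. Fbp1 and Miox ran from -2.32 to 0.16 and from -1.24 to -0.0092. Both were flagged above background throughout, but their wildtype 2 readings were near the floor of that array, so their pool 2 values are not read. The median over the genes was -1.40 in the pool 1 pair, -1.30 in the pool 2 pair and -1.30 in the pair of pools 3 and 4. The pool 2 median leaves out Pck1 and depends on the values of Gc, Acsm2, Ugt2b38, Fbp1 and Miox limited above. How even the medians were is therefore not read.

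**Figure D2:**
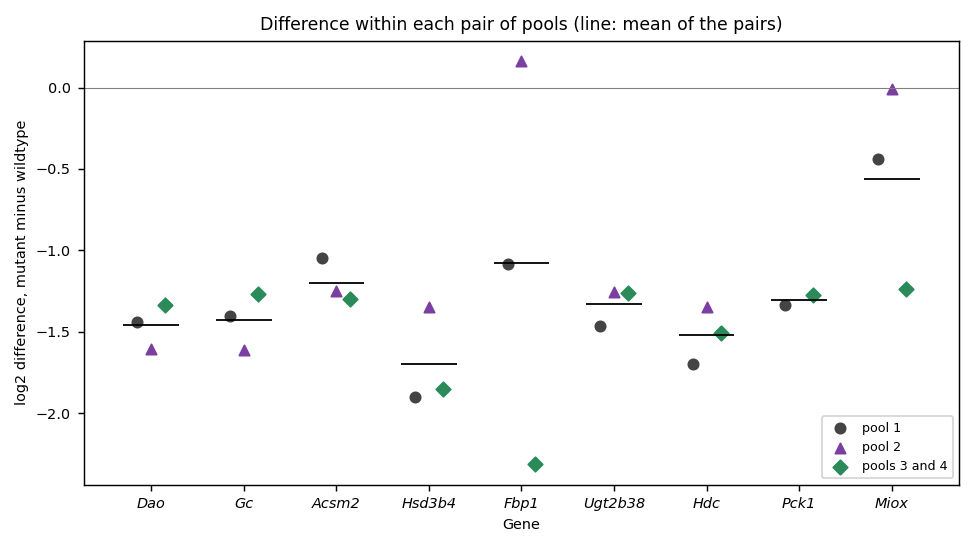
Log2 difference, mutant minus wildtype (y axis), for each gene (x axis) within the pairs of equal pool number: pool 1 as circles, pool 2 as triangles and pools 3 and 4 as diamonds, with a line at their mean. The points of Hdc lie between -1.70 and -1.35, whereas those of Fbp1 run from -2.32 to 0.16. The pool 2 points of Gc, Acsm2 and Ugt2b38 rest on mutant readings not above background. Those of Acsm2, Ugt2b38, Fbp1 and Miox rest on wildtype readings near the floor of their array.

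The limma fit without the pool number called 10 of 22662 genes at an adjusted p under 0.05, or 0.0441%, and 0 of the 9 genes were among them. A fit that took pool number as the replicate block called 34 genes, or 0.15%, of which 26 were lower in the mutant, or 0.115% of those tested. The 6 genes Dao, Gc, Acsm2, Hsd3b4, Ugt2b38 and Hdc were called lower in the blocked fit, and Fbp1, Pck1 and Miox were not. The calls of Gc, Acsm2 and Ugt2b38 rest on how even their pairs were, which is not read for these genes. Pairing by pool number was itself inferred from these data. The standard error of the Dao difference was 0.63 without the block and 0.094 with it, and that of Hsd3b4 was 1.00 and 0.13. These counts use the contrast that chose the genes and are given as a description.

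Pools also differed from one another within the groups. This comparison is orthogonal to the difference between mutant and wildtype in the fit, but it draws on the same arrays, and mutant pool 2 is among those in which the genes were low when some of them were selected. Pool 2 was the lowest pool in both groups for 8 of the 9 genes, beside 23.8% of all genes, and Pck1 could not be placed without its wildtype 2 value. Relative to the mean of the other samples of its group, pool 2 read lower by a median of -2.11 over the genes for wildtype and -1.84 for mutant, beside -0.058 and -0.0076 over all genes. Hsd3b4 read -2.93 in wildtype and -2.40 in mutant, which are 7.61-fold and 5.29-fold. The mutant gaps of Gc, Acsm2 and Ugt2b38 are bounds, since their mutant pool 2 readings were not above background. The wildtype gaps of Acsm2, Ugt2b38, Fbp1 and Miox rest on readings near the floor of the wildtype 2 array, which stood apart. Their size is not read, and the wildtype median of -2.11 depends on them. Fbp1 and Miox had gaps of -2.32 and -1.18 in wildtype and of -0.45 and -0.35 in mutant.

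The limma F test for any difference between pools, with the group as a term, called 35 of 22661 genes, or 0.154%. It called 5 of the 9 genes: Hdc, Ugt2b38 and Acsm2 at an adjusted p of 0.024, Hsd3b4 at 0.0271 and Dao at 0.0315. The adjusted p was 0.0579 for Gc, 0.109 for Pck1, 0.296 for Fbp1 and 0.313 for Miox. For Acsm2 and Ugt2b38 the pool 2 readings were near the floor in wildtype and not above background in mutant. The calls rest on pool 2: without both pool 2 arrays the test called 0 genes, with 2756 at an unadjusted p under 0.05, and adjusted p-values for the 9 genes of 0.41 to 0.856. On the log ratios of the scanner software it also called 0 genes, with 3077 at an unadjusted p under 0.05, and adjusted p-values for the 9 genes of 0.114 to 0.362.

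The SD between samples was 1.18 (wildtype) and 1.08 (mutant) at the median of the genes, beside 0.12 and 0.17 over all genes tested. Readings of the one reference RNA in Cy3, on the 7 arrays without wildtype 2, had an SD of 0.038 to 0.11 for 8 of the genes and 0.34 for Dao. Over all 8 arrays that SD was 0.11 to 0.44, and for Fbp1 it was 0.44 against 0.39 between mutant samples. The reference SD covers technical noise only, whereas the sample SD also holds differences between pools. Fbp1 and Miox combined a wide wildtype spread, at 1.61 and 0.79, with a narrow mutant one, at 0.39 and 0.20. Over all probes of the genes, pools 3 and 4 of a group were close, with a largest difference of 0.475 for Pck1 in wildtype. In mutant the largest was 0.311, for the dimmer Dao probe.

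**Figure D3:**
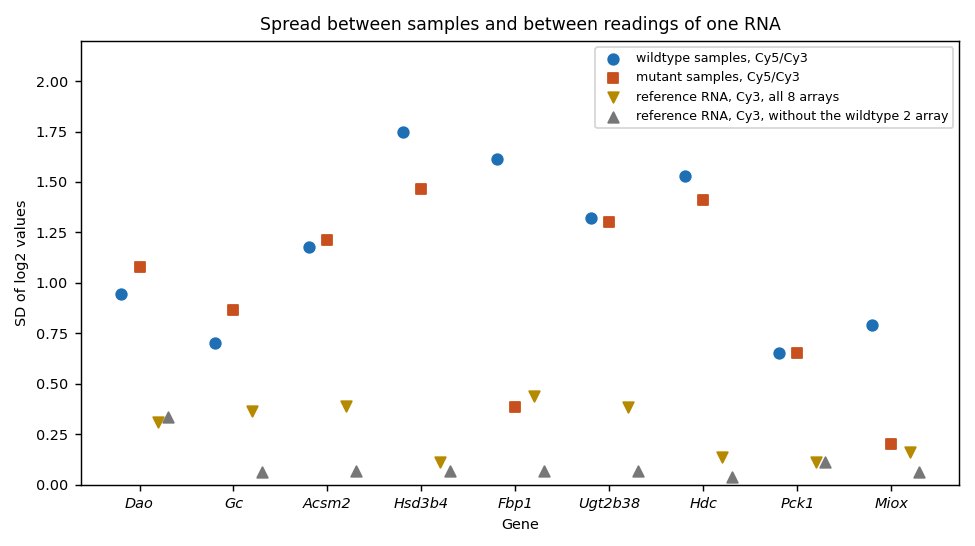
SD of log2 values (y axis) for each gene (x axis) over the wildtype samples (circles), over the mutant samples (squares) and over Cy3 readings of the reference RNA on all 8 arrays (downward triangles) and without the wildtype 2 array (upward triangles). In wildtype, Hsd3b4 reads 1.75 against 0.11 for the reference on 8 arrays, and in mutant Fbp1 at 0.39 is below its 8-array reference SD of 0.44.

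Leaving out 1 sample kept every difference below 0 but changed its size. Without wildtype 2, which was low and on the array that stood apart, the difference grew to -2.68 for Hsd3b4, -2.39 for Hdc, -2.06 for Ugt2b38, -1.87 for Acsm2, -1.85 for Fbp1 and -0.96 for Miox, and it was -2.0 for Dao and -1.83 for Gc. Without the wildtype sample of pools 3 and 4 it shrank to -0.99, -0.94, -0.77, -0.79, -0.24 and -0.17 for the same 6 genes, Hsd3b4 to Miox. Without mutant 2 it shrank to -0.85 for Dao, -0.93 for Gc, -0.50 for Acsm2, -0.90 for Hsd3b4, -0.63 for Ugt2b38 and -0.74 for Hdc. Without both pool 2 samples no gene moved by more than 1.5 times other than Fbp1, at -1.70.

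Other genes of the same pathways were taken from lists of textbook members, without the 9 genes. In gluconeogenesis 0 of 14 measured genes passed the limma test, with 2 at an unadjusted p under 0.05, and the median difference was -0.16. The blocked fit called 1 of the 14, lower in the mutant, and 9 had a lower mean and 5 a higher one. The brightest genes of the list, glycolytic and mitochondrial enzymes that every cell uses, differed little. They read -0.18 ± 0.18 for Eno1, -0.053 ± 0.091 for Gpi1 and 0.078 ± 0.091 for Mdh2. Slc37a4, named after its values were seen, read -0.67 ± 0.13.

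Among UDP-glucuronosyltransferases and the enzymes of their cofactor, 0 of 9 genes passed, with 1 at an unadjusted p under 0.05, 8 had a lower mean in the mutant, and the median was -0.57. Ugt1a6b read -0.80 ± 0.41 (SE), whereas Ugdh and Ugp2, which make the cofactor, read 0.24 ± 0.11 and -0.044 ± 0.14. Vitamin D transport and metabolism had 0 of 7 past the test, with 0 at an unadjusted p under 0.05, and a median of -0.39. Its endocytic receptor Lrp2 read -0.95 ± 0.76 and Amn, which anchors the cubilin receptor, -0.98 ± 0.76, while the adaptor Dab2 read -0.088 ± 0.17. The vitamin D hydroxylases Cyp27b1, Cyp24a1 and Cyp27a1 did not pass the filter on dim probes.

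The other lists had 0 genes past the limma test and medians near 0, with 3 acyl-CoA synthetase, 1 peroxisomal, 0 steroid, 1 histidine and 4 inositol genes at an unadjusted p under 0.05. The acyl-CoA synthetase list had a median of -0.093 over 8 genes, with 0.51 ± 0.16 (SE) for Acss2, 0.29 ± 0.30 for Acss1 and -0.069 ± 0.093 for Acsf2. Keg1 and Glyat, glycine conjugation enzymes named after their values were seen, had the largest differences of that list, at -1.28 ± 0.46 and -1.16 ± 0.40. Peroxisomal oxidases and D-amino acid metabolism had a median of -0.074 over 9 genes, with Paox at 0.26 ± 0.19 and Srr at 0.18 ± 0.13, while Pipox, Prodh2 and Hao2, named after their values were seen, read -0.98 ± 0.49, -0.90 ± 0.35 and -0.86 ± 0.51. Acss2 activates acetate, and Paox and Srr act on polyamines and serine. Steroid metabolism had -0.11 over 9 genes, with Srd5a1 at 0.15 ± 0.092, Hsd17b11 at -0.14 ± 0.15 and Hsd17b4 at 0.093 ± 0.099. Histidine and histamine metabolism had -0.084 over 6 genes, with Slc22a2 at -0.63 ± 0.42, Aoc1 at -0.11 ± 0.37 and Slc18a2 at 0.0005 ± 0.16. Inositol and glucuronate metabolism had 0.028 over 13 genes, with Akr1a1 at -0.24 ± 0.16, Akr1b3 at -0.032 ± 0.12 and Isyna1 at 0.028 ± 0.10.

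Of the paralogs of Hsd3b4, Hsd3b1, Hsd3b3 and Hsd3b5 did not pass the filter on dim probes. Hsd3b7, picked out after its values were seen, was lowest in pool 2 of both groups, at -0.36 and -0.40. Hsd3b6, also picked out after its values were seen, read 0.060, 0.40 and -0.073 in the wildtype samples and -0.47, 1.27 and -0.15 in the mutant samples, so that its highest value was in mutant pool 2, where Hsd3b4 was lowest. Cross-hybridisation among the Hsd3b, Ugt2b and Acsm families was not tested.

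The genes with the most similar profile were found by the root mean square difference from the mean of the 9 genes over the 6 samples, each gene centred on its own mean, among 14796 genes. The 8 nearest were Cltrn at 0.085, Sostdc1 at 0.089, Fxyd2 at 0.096, Slc22a6 at 0.15, Aadac at 0.16, Slc2a2 at 0.16, Tinag at 0.18 and Cyp4a31 at 0.18 log2 units. Cltrn read 0.96, -0.58 and 1.53 in the wildtype samples and -0.28, -1.73 and 0.10 in the mutant samples, where the mean of the 9 genes was 0.92, -0.70 and 1.62 and -0.39, -1.66 and 0.14. The mean in wildtype 2 leaves out Pck1, which had no value there and was centred on its other samples. Among the 9, Dao lay nearest to that mean at 0.22 and Miox farthest at 0.61. These points share the same 6 samples and one reference.

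Markers of the proximal tubule moved with the 9 genes across the samples. Of 18 markers 16 were measured, 13 had a lower mean in the mutant and their median difference was -0.69. The limma fit called 0 of them, with 1 at an unadjusted p under 0.05, and the blocked fit called 1, Pdzk1, at -1.46 ± 0.096 (SE in that fit). Their sample medians were 0.00006, -1.07 and 0.52 in wildtype and -0.62, -1.33 and -0.31 in mutant, against 0.025, -1.62 and 0.76 and -1.38, -3.0 and -0.89 for the 9 genes. Both wildtype 2 medians come from the array that stood apart, and that of the 9 genes leaves out Pck1. Some of the markers were dimmer in Cy5 than Miox, whose reading there was near the floor. The part of that array in the marker medians was not tested. In RNA from sorted pools, fewer tubule cells and less RNA per cell cannot be told apart. The transcription factor list of 7 measured genes had a median of -0.32, with 5 lower and 2 higher means in the mutant. Hnf4a was the lowest of that list at -1.51 ± 0.61 (SE) in mutant minus wildtype. Ppara at 0.23 ± 0.23 and Maf at 0.22 ± 0.30 were the higher ones.

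Lists of other nephron segments had medians below 0 too, -0.57 over 8 podocyte genes and -1.09 over 7 genes of the loop of Henle and distal tubule. The limma fit called 0 genes of either list, with 3 podocyte and 4 loop and distal genes at an unadjusted p under 0.05. The blocked fit called 0 podocyte genes and 1 loop gene, the potassium channel Kcnj1, at -1.59 ± 0.12 (SE in that fit, adjusted p = 0.0324), and Pvalb was at 0.11. The podocyte list read 0.046, -0.60 and 0.43 in the wildtype samples and -0.72, -0.61 and -0.095 in the mutant samples. The loop and distal list read 0.017, -0.31 and 0.62 in wildtype and -1.07, -1.35 and -0.78 in mutant. The part of these cells in the values of the 9 genes was not tested.

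The labelled cell type was present in all pools by its markers, with all 12 progenitor genes measured and a median difference of -0.32. Their sample medians ran from -0.066 to 0.078 in wildtype and from -0.49 to -0.21 in mutant. Cited1, a marker of the least committed progenitors, passed the test with -2.72 ± 0.13 (SE). Medians of 0.24 for interstitial stroma, 0.25 for endothelium and 0.26 for ureteric bud and collecting duct were on the other side of 0, and each of these lists had 8 measured genes.

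Hepatocytes make Gc and several of the other gene products. Of their markers, Alb, Apoa1 and Tat did not pass the filter on dim probes. Afp, Fgb and Serpina1a were above background on 4 arrays of each group. They read -1.55 ± 1.07, -1.27 ± 0.35 and -0.91 ± 0.50 (SE), with Afp at -2.94 in wildtype pool 2 and -3.56 in mutant pool 2. Apoa2 and Ahsg read -0.051 ± 0.087 and -0.22 ± 0.12. The 5 of 8 hepatocyte markers that were measured all had a lower mean in the mutant, with a median of -0.91 and sample medians of 0.055, -0.066 and 0.25 in wildtype and -0.87, -2.08 and -0.65 in mutant. Mast cells are a known source of Hdc, and their markers Mcpt4, Cma1, Fcer1a and Ms4a2 did not pass the filter, while the 4 measured ones had a median of 0.12. Adrenal cortex markers, with 5 of 8 measured, had a median of -0.033. The part of these cell types in the values of the 9 genes was not tested. Macrophage and erythroid lists, with 7 of 8 measured in each, had medians of 0.037 and 0.034.

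**Figure D4:**
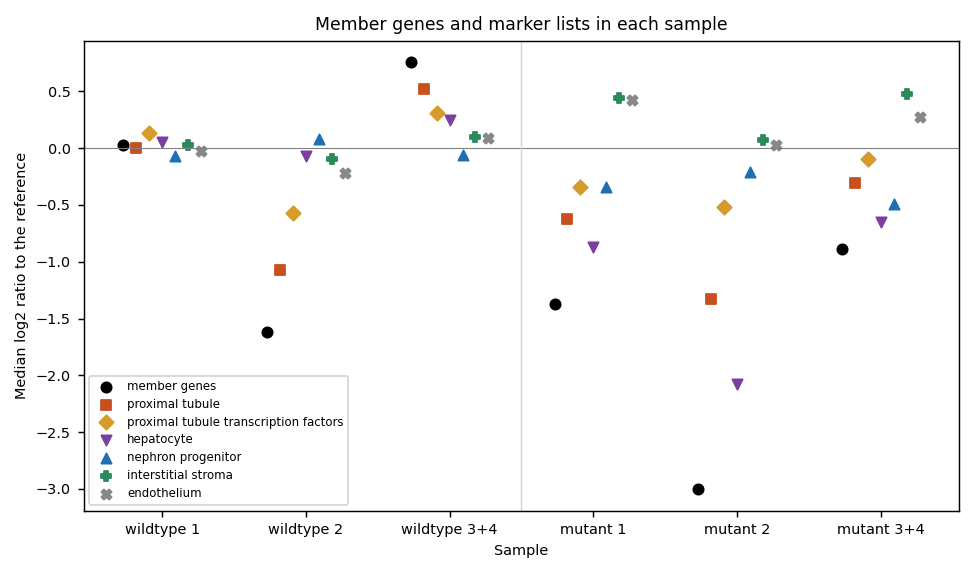
Median log2 ratio to the reference (y axis) of the 9 genes and of 6 marker lists in each of the 6 samples (x axis), with wildtype samples left of the line and mutant samples right of it. The medians of the 9 genes and of the proximal tubule markers are lowest in pool 2 of both groups. They are at -1.62 and -1.07 in wildtype and at -3.0 and -1.33 in mutant. The wildtype pool 2 medians come from the array that stood apart, and that of the 9 genes leaves out Pck1. The median of the progenitor list stays between -0.49 and 0.078, although its member Cited1 read -2.72 in mutant minus wildtype.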

How the data were processed

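Agilent Feature Extraction 10.7.3.1 made the deposited scanner files, per the submitters' processing notes. Their spots have linear intensity values for Cy5 and Cy3, with local background and, per the file headers, a log10 ratio of Cy5 over Cy3. The deposited value table holds log10 ratios that matched those of the scanner files to within 0.005 on every array, so scale and direction are known. Its column medians were 0, except 0.00483 for wildtype 2.

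Median spot signals were background-corrected in limma 3.58.1 under R 4.3.3 by normexp with an offset of 50, and each array was then loess-normalized. Offsetting compresses the ratios of dim probes. Control and outlier spots had weight 0, and outlier spots were set to missing, which left 355 genes without a value in some sample. Of 55681 probes 30364 were kept. The brightest probe of each gene gave 22662 genes, 14989 with a symbol from the RefSeq table of GRCm38.p6, which was used for names and promoter windows only, since the array design refers to another build. Protein sequences were not used here. No probe of the 9 genes was saturated.

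Each group had 3 samples after averaging pools 3 and 4. Tests were two-sided limma fits whose p-values were adjusted by Benjamini-Hochberg over the genes tested. Each sets a difference against the residual variance between these samples, moderated over all genes. In the blocked fit and the F test that residual leaves out the differences between pools. An exact permutation of 3 against 3 cannot go below p = 0.1. Deviations from the group means correlated at 0.495, 0.542 and 0.528 between samples of equal pool number and at -0.0778 to -0.454 between others, so pool numbers were treated as pairs, from the data and not from a stated shared litter or day. The 8 arrays sat on 1 slide. The fit was tested on simulated data.

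Some list genes and a motif are not reported here. Text names the 9 genes, up to 3 of the brightest other genes per pathway list, and the 8 genes of nearest profile. Some further list genes were named after their values were seen, and not every gene that passed a fit is named. The genes, lists and tests were chosen with earlier results of these data known. Alternatives are given in the closing section.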

Additional observations from a re-analysis of the deposited data

Results flagged for a closer look

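In 8 of the 12 probes of the 9 genes, 1 of the 8 Cy3 readings of the same reference RNA lay apart from the other 7 by more than Dixon's criterion allows, where chance gives about 1 group in 20. On the wildtype 2 array the log2 Cy3 level was 8.22 for the brighter Gc probe (9.16 to 9.3 elsewhere), 7.19 for the second Gc probe (8.22 to 8.45), 8.24 for Acsm2 (9.21 to 9.4) and 7.68 for Fbp1 (8.81 to 9.01). It was also low on that array for Ugt2b38 at 8.07 (9.06 to 9.23), Hdc at 11.3 (11.6 to 11.7) and Miox at 6.89 (7.24 to 7.4). For the brighter Dao probe the array apart was wildtype 3, at 10.5 against 11.2 to 11.5. These 8 readings are not independent, since 7 come from 1 array, and no cause was tested.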

How the results depend on the processing

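The median of the 9 genes stayed below 0 under all 21 alternatives, from -1.87 without wildtype 2 to -0.85 without mutant 2, and no gene's difference turned sign. The count of 10 genes past the threshold became 34 with a replicate block on the pools, 257 with the 8 arrays as separate samples, 92 with spike-in centring (9 higher and 83 lower, median of all genes -0.139), 1 with Cy5 levels alone, 5 with a trended robust prior, 0 without the pool 2 pair (1486 at an unadjusted p under 0.05 in limma), and 1 to 9 when 1 sample was left out (3 without mutant pools 3 and 4). The 0 pathway list genes became 1 with the replicate block, 2 with separate arrays (Xylb and Slc37a4, both lower) and 4 with spike-in centring (all lower, with Cubn, Keg1 and Glyat among them), and were 0 with any 1 sample left out. The pool test fell from 35 genes to 0 without pool 2 and to 0 on the scanner log ratios. On those log ratios, which differ in background correction and dye normalization, Gc read -2.37 and -2.02 (2 probes), Ugt2b38 -2.67, Pck1 -2.77, Acsm2 -2.23, Miox -1.37 and the dimmer Dao probe -2.90; the cause was not tested. Keeping outlier spots was added after seeing the data and left the median at -1.43; for Pck1 the kept wildtype 2 spot read 0.16.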
